A study of Mus musculus with 2 samples.

Results

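Mitochondrial ribosomal proteins are nuclear genes whose products build the ribosome inside mitochondria. They were taken here as every gene of the deposited joint expression table whose symbol is Mrpl or Mrps, a number and at most 1 further letter. The rule found 77 of 21145 listed genes, 48 named for the large subunit (Mrpl) and 29 for the small subunit (Mrps), and all 77 had a mean of at least 1 FPKM over both libraries. FPKM counts the fragments of a gene per kilobase of its transcript and relative to all fragments mapped, so levels can be compared between genes. The libraries came from AML12, a nontumorigenic mouse hepatocyte line of the CD1/MT42 strain at passages 14 to 16. The cells had been infected with a lentivirus expressing the long noncoding RNA H19 (Lv-H19) or with the control virus (Lv-NC). Both lines were selected with 0.5 mg/ml and kept in 0.25 mg/ml puromycin, so infection and puromycin are shared by both groups. The labels name a stable line per virus and no separate cultures or clones.

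The mitochondrial ribosome translates the few messenger RNAs of the mitochondrial genome, which encode membrane subunits of the respiratory chain and of ATP synthase. Its RNA parts are made in the organelle. All its proteins are made in the cytosol from nuclear genes and imported. The small subunit binds the messenger RNA and reads its codons, and the large subunit joins the amino acids and releases the chain at an exit tunnel facing the inner membrane. Some of its proteins have counterparts in bacterial ribosomes and others were added in mitochondria. Hepatocytes are rich in mitochondria.

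With 1 library per group, no value carries an error between replicates and nothing could be tested, so all differences are descriptions of 2 libraries. The library titled as overexpressing (the H19 library) held 4.72 FPKM of H19 itself, which the control library listed at 0. Where levels come in pairs the control library stands first. The hepatocyte markers Krt8, Krt18, Trf, Apob and Hnf4a were between 74.4 and 909 FPKM in the control library and between 44.4 and 658 FPKM in the H19 library. Serpina1a was at 2.12 and 0.192 FPKM. Albumin (Alb, 0.990 and 0.178 FPKM) and Ttr (0.785 and 0.290 FPKM) were low, and Apoa1 and Fgb were at or near 0. All 6 hepatocyte markers with a mean of at least 1 FPKM were lower in the H19 library, as were 3 of 4 bile duct markers. Of 5 listed macrophage and leukocyte markers 3 reached that mean, and all 3 were lower. Des alone of 5 listed stellate cell and fibroblast markers reached it, at 3.43 and 0.893 FPKM, and none of the 3 listed endothelial markers did. Acta2, Col1a2 and Pdgfrb were under 0.1 FPKM in both libraries. The summed FPKM of the listed markers went from 2020 to 1541 for hepatocytes, 818 to 463 for bile duct, 130 to 64.4 for macrophages and leukocytes and 3.82 to 1.199 for stellate cells. Of the macrophage and leukocyte sums Cd14 alone held 124.8 and 62.4 FPKM. Cd68 was at 2.75 and 0.928 FPKM, Lyz2 at 1.68 and 0.412 FPKM and Csf1r at 0.48 and 0.27 FPKM. Ptprc was higher in the H19 library, at 0.237 and 0.380 FPKM. The part of these levels in the differences below was not tested. In such a culture fewer cells of a kind and less RNA per cell cannot be told apart.

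Transcripts of mitochondrial ribosomal proteins were mostly more abundant in the H19 library, each by a modest amount. Of the 77 genes, 71 were higher and 6 lower, where 58.9% of the 11674 genes with a mean of at least 1 FPKM (called measured genes) were higher and 41.1% lower. With equal upper quartiles of the libraries 61 were higher and 16 lower, with TPM 66 and 11, and with the median of all measured genes set to 0 these counts were 65 and 12. The median log2 difference was 0.38, against 0.08 over all measured genes. The log2 difference is log2(FPKM + 1) in the H19 library minus that in the control library. The 58.9% and 41.1% belong to the values as deposited. The median over all measured genes was -0.03 with equal upper quartiles, 0.02 with TPM and 0 by definition in the remaining scaling. The quartiles of the members were 0.17 and 0.51, and the full range was -0.35 to 0.88. The median level was 27.5 FPKM in the control library and 36.1 FPKM in the H19 library, and the summed FPKM over all 77 went from 2480 to 3205, a ratio of 1.29. The same sum over all measured genes had a ratio of 1.05.

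At the 1.5-fold threshold, 11 of the 77 genes were higher, which is 14.3% of them beside 8.99% of all measured genes. With the median of all measured genes at 0 they were 7 (9.09% beside 6.08%), and with equal upper quartiles 6 (7.79% beside 5.09%). None was at least 1.5-fold lower, where 6.21% of measured genes were. None of the 77 was 2-fold higher or 2-fold lower, where 1.14% and 1.57% of measured genes were. None is among the 561 genes of the authors' deposited table of differences, out of 21145 listed genes. A shift of 0.38 in the middle of the list was thus made of many small differences. Of the 77 genes, 65 were above the median of all measured genes.

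**Figure D1:**
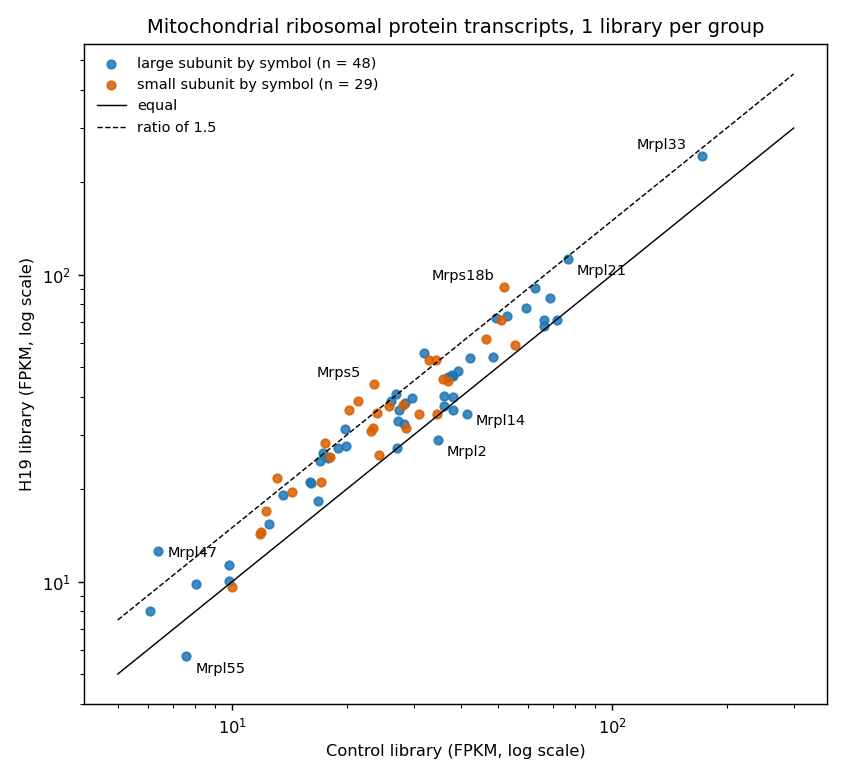
Level of each of the 77 transcripts in the control library (x axis) and the H19 library (y axis), both in FPKM on log scales, with large subunit genes in blue and small subunit genes in orange. Most points lie between the line of equality and the dashed line at a ratio of 1.5, and Mrpl55, Mrpl2 and Mrpl14 lie below equality.

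The order of the levels was nearly the same in both libraries (Spearman's rho of 0.94 across the 77 genes, as a description). Mrpl33, a small protein of the large subunit, was the most abundant, with 172 FPKM in control and 243 FPKM in H19 cells. Its deposited locus spans 488 kb and is shared with 4 other listed genes, and its exons overlap those of Gm43809 on the same strand. Mrpl21 followed at 76.5 and 113 FPKM, and Mrpl12, Mrpl34 and Mrps18b came next. These 5 had a mean level above at least 90.95% of measured genes. At the low end were Mrpl55 (7.57 and 5.71 FPKM), Mrpl19 (6.07 and 8.04 FPKM) and Mrpl57 (8.05 and 9.82 FPKM). The control level spanned 6.07 to 172 FPKM, so proteins that are built into the same particle differed widely in transcript abundance. The difference showed little relation to the control level (Spearman's rho of -0.11 across the 77 genes).

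The large and small subunits were compared next. The small subunit genes had a median log2 difference of 0.42 and the large subunit genes one of 0.32, a gap of 0.09. Of 29 small subunit genes 28 were higher and 8 were at least 1.5-fold higher. Of 48 large subunit genes 43 were higher and 3 were at least 1.5-fold higher. Of all measured genes 58.9% were higher and 8.99% were at least 1.5-fold higher. With equal upper quartiles 25 of 29 and 36 of 48 were higher, and 4 small and 2 large subunit genes were at least 1.5-fold higher, beside 5.09% of all measured genes. With the median of all measured genes at 0 these were 5 and 2, and among genes that share no locus or exons with another gene they were 3 and 0. The median of the large subunit was 0.20 with equal upper quartiles and that of the small subunit 0.29, beside -0.03 over all measured genes. The lower genes were 5 of the large subunit and 1 of the small. The summed FPKM of the small subunit genes went from 780.1 to 1070.5, a ratio of 1.37, and that of the large subunit genes from 1700 to 2134, a ratio of 1.26. The ranges of the subunits overlapped almost fully, from -0.04 to 0.87 for the small and from -0.35 to 0.88 for the large.

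In level, the median large subunit gene was at 29.2 FPKM in the control library and the median small subunit gene at 24.1 FPKM, a ratio of 1.21. In the H19 library the medians were 36.8 and 35.1 FPKM, a ratio of 1.05. Among genes that share no locus or exons with another gene these ratios were 1.11 and 1.09. With means in place of medians they were 1.32 and 1.2. The symbols do not match the assembled particle in every case, since the products of Mrps30 and Mrps18a sit in the large subunit and Mrps36 is not counted among its proteins. With these 3 moved, the medians were 0.42 over 26 small subunit genes and 0.32 over 50 large subunit genes. With 1 library per group the gap between the subunits has no error of its own.

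**Figure D2:**
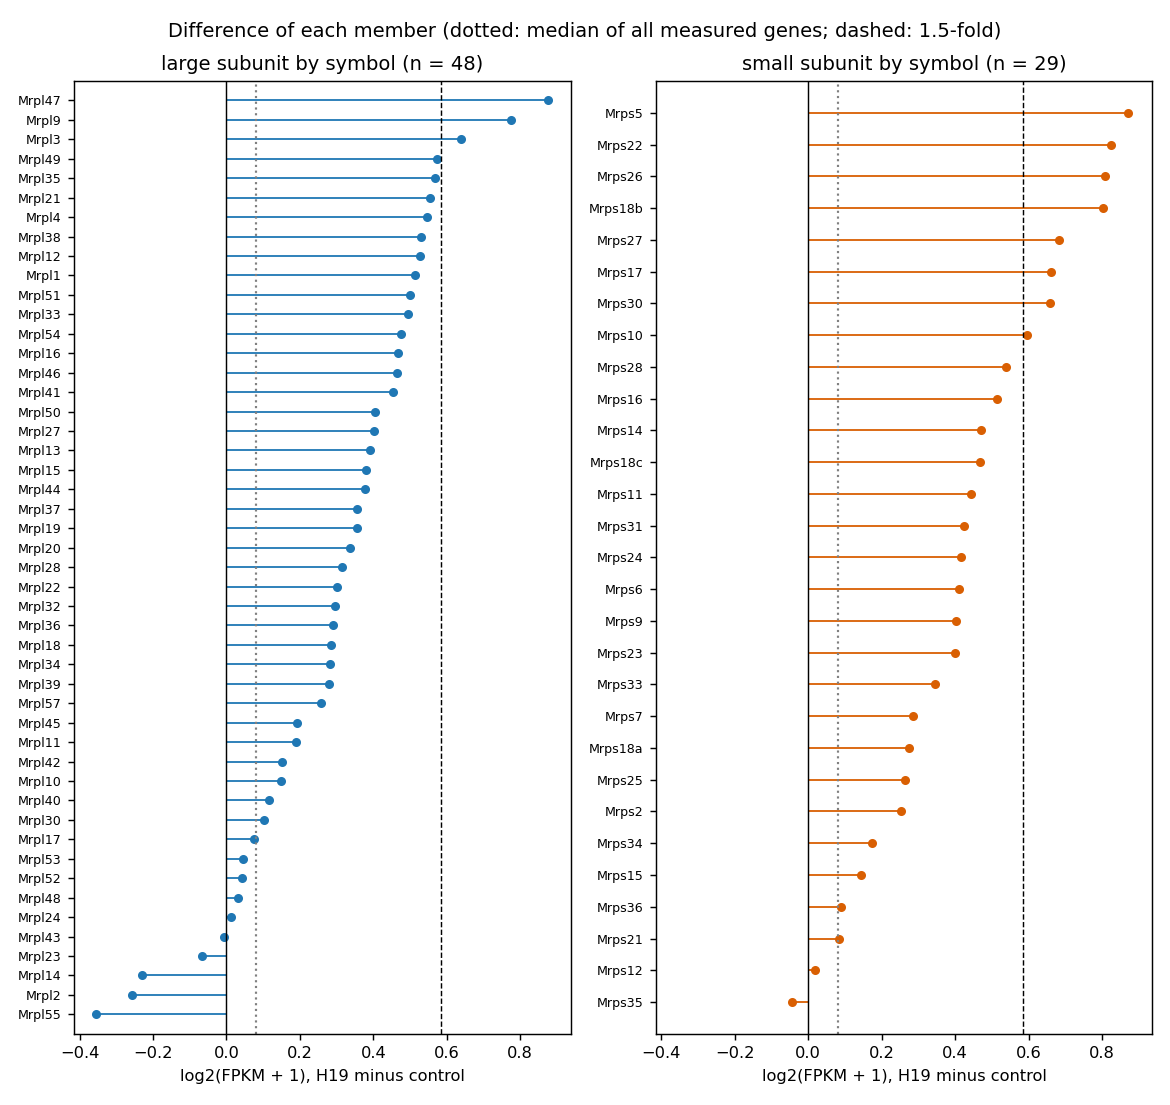
Difference of each gene, as log2(FPKM + 1) in the H19 library minus the control library, sorted within the large subunit (left, blue) and the small subunit (right, orange). The dotted line marks the median of all measured genes (0.08) and the dashed line 1.5-fold. On the left 3 genes and on the right 8 genes pass the dashed line.

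Among large subunit genes the highest difference was that of Mrpl47 (ENSMUSG00000037531, chromosome 3, 32725397 to 32737605, minus strand, GRCm38), whose product lies at the exit tunnel. Its level was 6.39 FPKM in the control library and 12.6 FPKM in the H19 library (log2 difference 0.88). It is also one of the least abundant members, and its exons overlap those of Actl6a and Ndufb5 on the other strand, so reads could not be told apart if strand was not used. Mrpl9 was at 32.0 and 55.4 FPKM (0.77). Mrpl3, whose product reaches toward the peptidyl transferase centre, was at 19.8 and 31.4 FPKM (0.64). Mrpl49 (27.0 and 40.7 FPKM) and Mrpl35 (17.4 and 26.2 FPKM) were next, both at a log2 difference of 0.57 and just under the threshold.

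The lower genes of the large subunit were few. Mrpl55, at 7.57 and 5.71 FPKM, had the lowest log2 difference of all 77, -0.35. Mrpl2 (34.8 and 28.9 FPKM) and Mrpl14 (41.4 and 35.2 FPKM), which encode conserved core proteins of the subunit, were at -0.26 and -0.23. Mrpl14 protein is also the docking site of the assembly factor MALSU1, whose gene Malsu1 was at 7.96 and 11.1 FPKM (0.43). Mrpl43 at 71.5 and 71.2 FPKM was equal to within 0.01 on the log2 scale. The deposited locus of Mrpl2 spans 389 kb and is shared with 18 other listed genes.

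Mrpl23 lies beside H19 on chromosome 7. Its annotated end at 142540747 is 34.8 kb before the annotated H19 gene at 142575529, with the noncoding gene Nctc1 between them (GRCm38). Mrpl23, which encodes a protein of the exit tunnel, had 38.0 FPKM in the control library and 36.3 FPKM in the H19 library (log2 difference -0.07). Mrpl23 was thus among the 6 lower members, by a small amount. H19 made from the virus and H19 made from the gene beside Mrpl23 cannot be told apart in these values. A link between H19 and the level of Mrpl23 was not tested. The other members on chromosome 7 had differences from 0.02 to 0.47.

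Among small subunit genes the highest difference was that of Mrps5 (ENSMUSG00000027374, chromosome 2, 127587222 to 127606829, plus strand, GRCm38), whose product lines the messenger RNA channel. Its levels were 23.6 and 44.1 FPKM (log2 difference 0.87), and it shares neither its locus nor its exons with another gene. Mrps22 was at 21.5 and 38.7 FPKM (0.82), Mrps26 at 20.3 and 36.3 FPKM (0.81) and Mrps18b at 52.0 and 91.3 FPKM (0.80). Mrps18b was also the most abundant small subunit gene in the H19 library. Its relatives Mrps18c (51.0 and 71.0 FPKM) and Mrps18a (36.99 and 44.97 FPKM) were at 0.47 and 0.28. Mrps27, a pentatricopeptide repeat protein, was at 13.1 and 21.7 FPKM (0.68). Mrps17, Mrps30 and Mrps10 were at 0.66, 0.66 and 0.60.

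At the other end of the small subunit stood Mrps35, at 9.97 and 9.64 FPKM (log2 difference -0.04), the only lower gene among the 29 in the values as deposited, where 2 to 4 were lower under the other scalings. Mrps12, which encodes a protein of the decoding centre, was at 34.6 and 35.1 FPKM (0.02), beside 0.87 for Mrps5. Mrps21 (55.5 and 59.0 FPKM), Mrps36 (24.3 and 25.9 FPKM) and Mrps15 (28.6 and 31.7 FPKM) were between 0.08 and 0.14. Mrps36 encodes a protein now placed in the 2-oxoglutarate dehydrogenase complex.

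Members were then grouped by place in the particle, from a list of roles that covers only some of them. Of the 77 genes, 49 had no place in this list, among them Mrpl55, the member with the lowest difference. The 3 stalk proteins, which receive the translation factors, had log2 differences of 0.53 for Mrpl12, 0.19 for Mrpl11 and 0.15 for Mrpl10. Their median was 0.19 as deposited and 0.07 with equal upper quartiles. Mrpl12, which is also known to bind the mitochondrial RNA polymerase, was at 62.6 and 90.6 FPKM. The 7 genes assigned to the central protuberance were all higher as deposited, where 58.9% of all measured genes were. With equal upper quartiles 4 of 7 were higher, beside a median of -0.03 over all measured genes. The median of the 7 was 0.28 as deposited and 0.16 with equal upper quartiles. As deposited, the values ran from 0.03 for Mrpl48 to 0.53 for Mrpl38 (49.6 and 72.0 FPKM). The 8 genes assigned to the exit tunnel, among them Mrpl47 and Mrpl23, had a median of 0.24 with 7 of 8 higher. With equal upper quartiles the median was 0.11 and 5 of 8 were higher. Mrpl45, which tethers the ribosome to the inner membrane, was at 28.3 and 32.5 FPKM (0.19). Of 8 genes of the small subunit head 7 were higher as deposited and with equal upper quartiles, with medians of 0.41 and 0.29.

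Genes with and without a bacterial counterpart had similar medians, leaving out Mrps36 and the 3 Mrps18 genes. The 45 genes with a bacterial counterpart had a median log2 difference of 0.38, and the 28 added in mitochondria one of 0.37. In level, the median was 29.8 FPKM for the first and 19.5 FPKM for the second in the control library. Within the small subunit the medians were 0.42 and 0.40 for 15 and 9 genes, and within the large subunit 0.32 and 0.36 for 30 and 19 genes, with subunits assigned by place. The small subunit thus had the higher median in both classes.

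Promoters were examined because the genes were mostly displaced in the same direction. NRF1 and the ETS factor GABPA are known activators of nuclear genes for mitochondrial proteins. RefSeq promoter windows (build GRCm38.p6, 250 bases before to 50 after the start) were matched by symbol for 68 of the 77 genes, in 74 windows. Both strands were searched for the NRF1 string (GCGCA, any base, GCGC) and the ETS string (CCGGAAG). Matches of different strings were counted separately and may overlap. Shown are the stretches before the start, outside annotated exons, of 3 genes with higher levels in the H19 library (Mrpl12, Mrps22, Mrps27) and 2 with near equal levels (Mrpl17, Mrpl43), 5' to 3' on the gene's strand, with the matches in capitals. They lie at chr11:120484387-120484612, plus strand for Mrpl12, chr9:98601680-98601929, minus strand for Mrps22, chr13:99344706-99344785, plus strand for Mrps27, chr7:105811100-105811337, minus strand for Mrpl17 and chr19:45006443-45006557, minus strand for Mrpl43.
Mrpl12: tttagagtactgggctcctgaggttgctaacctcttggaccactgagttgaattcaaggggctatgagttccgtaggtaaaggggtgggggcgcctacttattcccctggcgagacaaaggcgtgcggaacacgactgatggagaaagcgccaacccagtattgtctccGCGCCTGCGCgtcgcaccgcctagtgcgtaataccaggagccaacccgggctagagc
Mrps22: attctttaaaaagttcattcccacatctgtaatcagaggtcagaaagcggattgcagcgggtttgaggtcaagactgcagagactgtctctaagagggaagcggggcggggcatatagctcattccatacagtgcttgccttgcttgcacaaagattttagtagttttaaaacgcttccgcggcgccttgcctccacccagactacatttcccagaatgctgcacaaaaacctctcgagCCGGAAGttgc
Mrps27: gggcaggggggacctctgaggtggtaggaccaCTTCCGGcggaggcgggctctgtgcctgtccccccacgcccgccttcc
Mrpl17: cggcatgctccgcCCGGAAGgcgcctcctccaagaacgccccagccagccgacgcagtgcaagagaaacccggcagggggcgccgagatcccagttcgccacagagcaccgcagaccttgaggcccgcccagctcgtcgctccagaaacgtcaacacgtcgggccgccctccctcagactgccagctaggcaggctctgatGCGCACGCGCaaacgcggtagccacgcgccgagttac
Mrpl43: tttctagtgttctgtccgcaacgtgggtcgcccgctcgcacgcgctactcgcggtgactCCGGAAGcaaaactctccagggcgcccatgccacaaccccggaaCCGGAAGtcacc

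The NRF1 letters stand 81 bases before the start in Mrpl12 (on the other strand) and 49 in Mrpl17. The ETS letters stand 11 bases before it in Mrps22, 48 in Mrps27 (on the other strand), 237 in Mrpl17, and 56 and 12 in Mrpl43. Genes with a match thus include Mrps22 at a log2 difference of 0.82 as well as Mrpl17 at 0.07 and Mrpl43 at -0.01. Of the members' windows 33.8% held the ETS letters, against 8.86% of all 32851 windows and 18.8% of windows of measured protein-coding genes. For NRF1 these shares were 17.6%, 4.60% and 10.8%. AANATGGCG (YY1) was in 13.5%, 2.38% and 5.48% of windows, GGGCGG (SP) in 52.7%, 35.7% and 64.1%, and CACGTG (E-box) in 9.46%, 7.15% and 10.2%. The median log2 difference was 0.35 for the 25 genes with the ETS letters and 0.36 for the 43 without. It was 0.28 for the 13 with the NRF1 letters and 0.40 for the 55 without. For YY1 it was 0.41 for the 10 with the letters and 0.32 for the 58 without. For SP it was 0.35 for 34 with and 0.36 for 34 without, and for the E-box 0.34 for 5 with and 0.38 for 63 without. A match is a string of letters and shows no binding.

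Of the transcription factors and coactivators known for mitochondrial genes, 7 of 9 measured were higher, where 58.9% of all measured genes were. Their median was 0.41. With equal upper quartiles 6 of 9 were higher and their median was 0.29, beside a median of -0.03 over all measured genes. Gabpb1, the partner subunit of GABPA, was at 9.51 and 16.2 FPKM (0.71), and Gabpa at 16.9 and 22.7 FPKM (0.41). Nrf1 was at 14.4 and 21.5 FPKM (0.55) and Myc at 60.2 and 98.7 FPKM (0.70). Ppargc1a, a coactivator known for mitochondrial biogenesis, was at 2.47 and 2.42 FPKM (-0.02), and Esrra at 43.7 and 39.6 FPKM (-0.14).

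Many members share a start region with another gene. Within 1000 bases, 33 of the 77 genes had a protein-coding neighbour that starts on the other strand and is read away from them. Mrps11 and Mrpl46 on chromosome 7 are such neighbours of each other, with annotated genes that overlap by their starts. Mrps11 was at 12.2 and 17.01 FPKM and Mrpl46 at 13.6 and 19.2 FPKM, log2 differences of 0.44 and 0.47. Both have the same deposited locus and their exons overlap on opposite strands, so reads could not be told apart if strand was not used. Of 29 pairs whose neighbour was measured and no member, 23 neighbours were higher, where 58.9% of all measured genes were. The neighbours had a median of 0.25 where the members themselves had 0.38. With equal upper quartiles 20 neighbours were higher, beside a median of -0.03 over all measured genes. Only Zfp661, the neighbour of Mrps5, was at least 1.5-fold higher, at 2.23 and 4.33 FPKM (0.72), where 8.99% of all measured genes were. None was at least 1.5-fold lower, where 6.21% of measured genes were.

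Of the lower members with such a neighbour, Mrpl2 and Mrpl14 had lower neighbours and Mrpl43 had a higher one. Klc4 beside Mrpl2 was at 9.82 and 7.53 FPKM (-0.34), and Tmem63b beside Mrpl14 at 47.4 and 34.2 FPKM (-0.46). In other pairs the directions differed. Fau beside Mrpl49 was at 1157 and 946 FPKM (-0.29), and Ppp1r10 beside Mrps18b was at -0.19. Pnpla7 beside Mrpl41 was at -0.20 and Hira beside Mrpl40 at -0.02. Peo1 beside Mrpl43, the mitochondrial DNA helicase, was at 0.54. Overlapping exons on opposite strands, as for Mrpl14 with Tmem63b and Mrpl43 with Peo1, leave such values uncertain where strand was not used.

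**Figure D3:**
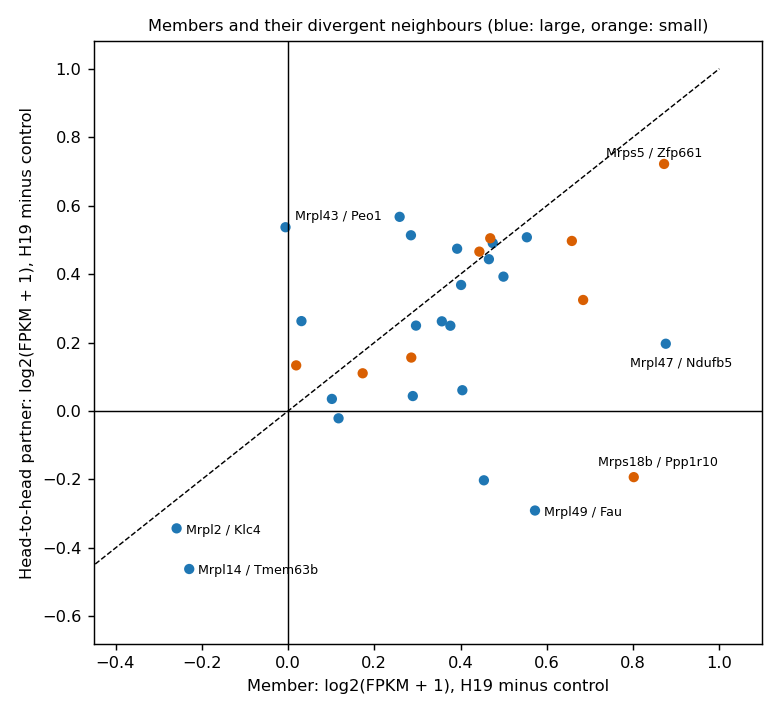
Each point is a member with a measured head-to-head neighbour, with the member's log2(FPKM + 1) difference (H19 library minus control) on the x axis and the neighbour's on the y axis, blue for large and orange for small subunit members. The dashed line marks equal differences. Most points lie in the upper right, and Mrpl2 and Mrpl14 lie in the lower left with their neighbours. Mrps18b, Mrpl49, Mrpl41 and Mrpl40 lie to the lower right.

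The remaining machinery of mitochondrial translation, from fixed lists, was set beside the members. Of all measured genes 58.9% were higher. Of 6 mitoribosomal proteins with other symbols all 6 were higher, with a median of 0.33. Ict1, a peptidyl-tRNA hydrolase built into the large subunit, was at 20.99 and 32.5 FPKM (0.61), and Dap3, a GTP-binding protein of the small subunit, at 35.7 and 42.4 FPKM (0.24). Of 14 translation factors 13 were higher (median 0.32). The release factor gene Mtrf1l was at 3.63 and 8.03 FPKM (0.96), and Oxa1l, which inserts new chains into the inner membrane, was the lower gene at 21.04 and 17.03 FPKM (-0.29). Of 17 mitochondrial aminoacyl-tRNA synthetases 16 were higher (median 0.32), with Yars2 at 8.90 and 16.4 FPKM (0.82).

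Of 21 factors that assemble the ribosome or modify its RNA, 20 were higher, beside 58.9% of all measured genes, with a median of 0.33. Here 2 genes passed 2-fold, where 1.14% of all measured genes did. Rnmtl1, a methyltransferase of the large ribosomal RNA, was at 7.15 and 16.1 FPKM (1.07). Rpusd4, a pseudouridine synthase, was at 8.14 and 17.6 FPKM (1.03). Both are in the authors' deposited table of differences, as is Mtrf1l. Ftsj2, another methyltransferase of that RNA, was at 6.501 and 11.2 FPKM (0.70), and Mterf3 at 18.7 and 34.8 FPKM (0.86). All 10 measured genes of mitochondrial DNA maintenance and transcription were higher (median 0.49), among them Ssbp1 at 54.6 and 87.5 FPKM (0.67). Of 14 import genes 13 were higher (median 0.32), with Tomm70a at 52.6 and 83.1 FPKM (0.65). With equal upper quartiles the higher genes were 5 of 6 other mitoribosomal proteins, 12 of 14 translation factors, 15 of 17 synthetases and 17 of 21 assembly factors. In the same scaling 9 of 10 maintenance genes and 12 of 14 import genes were higher. The medians of these 6 lists then lay between 0.19 and 0.37, beside -0.03 over all measured genes.

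The messenger RNAs of the mitochondrial genome were mostly lower in the H19 library. Its 13 protein-coding genes, whose messages this ribosome translates, had a median log2 difference of -0.31, with 9 lower and 4 higher. They included mt-Nd4l at 942 and 550 FPKM (-0.77) and mt-Co1 at 13799 and 10481 FPKM (-0.40), while mt-Co2 was at 5081 and 6626 FPKM (0.38). The 76 nuclear oxidative phosphorylation subunits, which are made by the cytosolic ribosome, had a median of 0.11, with 55 higher and 21 lower. The 83 measured cytosolic ribosomal proteins had a median of 0.18, with 68 higher and 15 lower. Over all measured genes 58.9% were higher and 41.1% lower. With equal upper quartiles the higher genes were 2 of 13, 37 of 76 and 59 of 83. The medians were then -0.44, -0.01 and 0.05, beside -0.03 over all measured genes. In the values as deposited, 2 of these 83 and 1 of the 76 were at least 1.5-fold higher, where 8.99% of all measured genes were. Transcripts of the organelle's own genes are made and degraded inside mitochondria, and their level says nothing of translation.

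**Figure D4:**
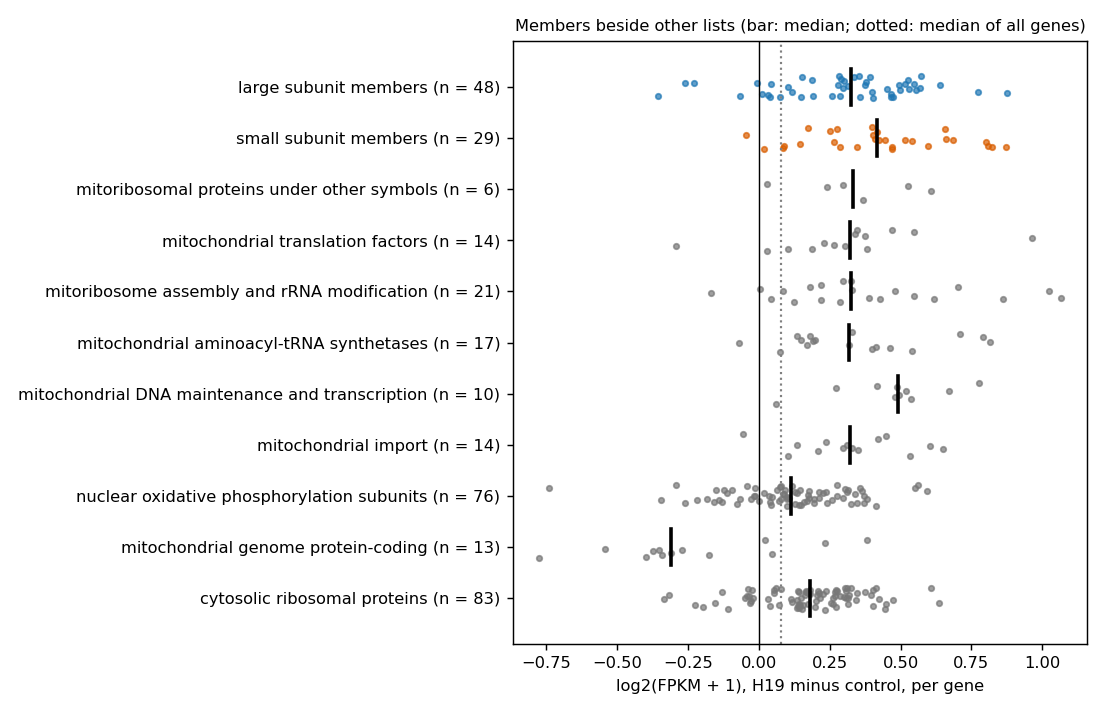
Difference of each measured gene, as log2(FPKM + 1) in the H19 library minus the control library, for the members by subunit (blue and orange) and for other lists (grey). Black bars are medians and the dotted line is the median of all measured genes (0.08). The medians of the translation, assembly, synthetase and import lists lie between 0.32 and 0.33, near that of the large subunit members, and the genes of the mitochondrial genome lie mostly below 0.

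Gene models limit some of these values. For 39 of the 77 genes the deposited locus held other genes or the annotated exons overlapped another gene. The other 38 had a median log2 difference of 0.32 with 35 higher, but only 3 of them, Mrps5, Mrps17 and Mrps10, were at least 1.5-fold higher, which is 7.89% and near the 8.99% of all measured genes. The members' annotated exons are shorter than those of other measured protein-coding genes, with medians of 2255 and 4537 bases. Measured protein-coding genes within the members' range of exonic length had a median log2 difference of 0.09.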

How the data were processed

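Expression was measured by RNA sequencing in 2 libraries, 1 per group, grouped by their titles. CASAVA 1.4, TopHat2 and mm9 are named in the submitters' processing notes. The sources used here do not give the program behind the FPKM, the use of strand, read totals or depth, so no counting interval is given. Per the file headers the authors deposited FPKM, and the members' values were identical in the joint and the per-library tables. The authors' deposited table of differences, with p-values and q-values and log2 ratios, was used only for membership. All 77 deposited member loci overlap the gene's GRCm38 position in GENCODE M21, and 35 have both ends equal to it, so coordinates are given on GRCm38 although the notes name mm9.

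From these values log2(FPKM + 1) was computed, with a pseudocount of 1 and a minimum mean of 1 FPKM. A gene counted as 1.5-fold or 2-fold different on that scale, which understates low genes. Lists were described by counts and medians beside all measured genes. The steps were tested on simulated data. The genes named were, per subunit, the 5 highest and 5 lowest differences and the most and least abundant, those with a role or place in the ribosome, neighbours of H19 and of each other, and up to 4 per other list; not every one is printed. Members and lists were chosen with earlier results of these data known. Genes named by other values were chosen after these were seen. Alternatives were pseudocounts of 0.1 and 0.01, no filter or a mean of at least 5 FPKM, 3 scalings (median of all genes at 0, TPM, equal upper quartiles), per-library tables, means, subunits by place, and members free of shared loci or exons. Tools were Python 3.11.15, numpy 2.4.6, pandas 2.3.3, scipy 1.17.1 and matplotlib 3.10.9.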

Additional observations from a re-analysis of the deposited data

How the results depend on the processing

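The median log2 difference of the 77 genes stayed above 0, and the small subunit kept the higher median, under the alternatives that could change them. The filters on low values and the per-library tables could not, since all 77 genes pass and hold the same values there, and scaling a whole library leaves the ratio of subunit levels as it is. A value counted as moved when it changed by more than 1.5 times, since no replicate spread exists. Of 97 values under the alternatives 56 equalled the reported one, many of them by construction, and 41 differed from it, 4 by more than 1.5 times. None changed sign. The count of genes at least 1.5-fold higher, 11 as reported, was 7 with the median of all measured genes set to 0, 6 with equal upper quartiles and 3 without members that share a locus or exons, where fewer genes were left. With equal upper quartiles, which moved the median of all genes from 0.08 to -0.03, the median of the large subunit was 0.199, and 61 of 77 genes were higher. With the median of all genes at 0, 65 of 77 were higher, and with TPM 66. The 10 genes that turned lower under equal upper quartiles had differences from 0.01 (Mrpl24) to 0.12 (Mrpl40) as deposited. No paired analysis was possible because each group has 1 library, and no library could be left out. Depth is unknown. Mrpl55, Mrpl19, Mrpl57 and Mrpl47 had the lowest mean FPKM of the members and so rest on the fewest fragments per kilobase. At equal FPKM a shorter gene rests on fewer fragments.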
